A study of Mus musculus with 16 samples.

Results

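The question was which muscle transcripts differ between the offspring of undernourished and of normally fed mouse dams averaged over both offspring diets. All 16 arrays of the study enter this comparison, 8 per maternal diet. Expression was measured in tibialis anterior, a fast muscle of the lower leg. The dams of the undernourished offspring had their food cut by 50% in week 3 of gestation, a model of low birth weight, and the control dams did not. Offspring of each kind were then fed ad libitum (AL) or kept on calorie restriction (CR), so that there were 4 groups: control or undernourished, each as AL or CR. Each group had 8 mice, whose RNA was pooled in pairs of 2, so each array is 1 pool and each group has 4 arrays. Strain, sex, age and litter are not used here, and the p-values measure only the spread between these pools, which is a limit because maternal diet was given to dams and littermates may share it.

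The arrays lay on 4 slides of 4 arrays, and each slide held 2 control and 2 undernourished pools of 1 offspring diet: slides 1 and 2 were AL, slides 3 and 4 were CR. Maternal diet was therefore compared within slides, while offspring diet coincides with slide and is removed with it. A value below is a relative log2 signal, the log2 of a probe's processed signal minus the array's 75th percentile, and a difference is always undernourished minus control on that log2 scale, with its standard error (SE) from the fit over 16 arrays. A gene is called alike where the difference had the same sign on all 4 slides and its probe was well above background on at least 2 of the 4 arrays of every slide.

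Food shortage late in gestation limits fetal growth at the time when muscle fibres are forming, and rodents born small are known for altered glucose handling and muscle mass later in life. In adult muscle, the balance between growth and loss is set largely by insulin and insulin-like growth factor signalling, which keeps the FoxO transcription factors out of the nucleus. When that signal falls, or glucocorticoids rise, FoxO factors switch on ubiquitin ligases, autophagy genes and cell cycle inhibitors that together reduce muscle protein.

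Arrays of a group correlated with each other at 0.959 to 0.992 over genes, no spot was saturated, and 66.4% to 78.5% of spots were well above background. Markers of skeletal muscle matched the labelled tissue, with a median relative log2 signal over 12 genes between 8.64 and 9.28 on every array. Transcripts of other tissues were also present, mainly on the AL slides. The median of 33 brain markers (34 listed) lay between -1.67 and 1.03 on the control AL arrays, between -2.50 and -0.81 on the undernourished AL arrays, and between -5.66 and -5.31 on all CR arrays. The median of 16 skin markers (20 listed) lay between -2.99 and 0.80 on control AL arrays and between -3.43 and -2.09 on undernourished AL arrays. On the CR arrays it lay between -4.10 and -3.79 for control dams and between -4.20 and -2.01 for undernourished dams. Thus brain markers were higher on the control arrays of the AL slides, where their median difference was -1.60, and close to even on the CR slides, where it was -0.07. For skin markers the median difference was -2.82 on the AL slides and 0.39 on the CR slides. For 13 of these brain genes, at least 1 slide had fewer than 2 arrays on which the probe was well above background.

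**Figure D1:**
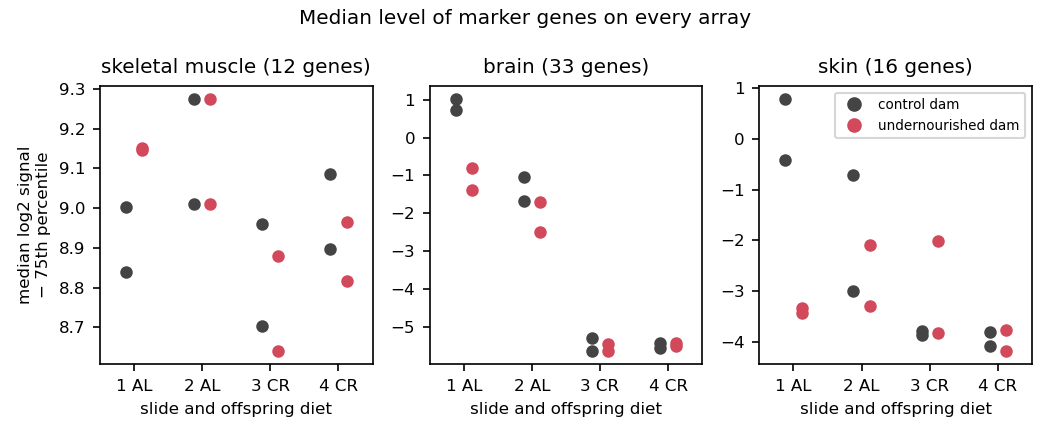
Each point is 1 array: the median relative log2 signal (y axis) of skeletal muscle, brain or skin marker genes, by slide and offspring diet (x axis), in control dams (grey) and undernourished dams (red). Muscle markers stay between 8.64 and 9.28, while brain markers stand highest on the control arrays of slide 1, at 0.74 and 1.03, and are at or below -5.31 on every CR array.

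Across 24826 genes, no gene passed an adjusted p of 0.05 between the maternal diets in limma with slide as a block (0 called, 0.0%). The smallest adjusted p was 0.145, shared by 4 genes. Before adjustment, 3279 genes (13.2%) had a p under 0.05, of which 1381 (5.56%) were higher and 1898 (7.65%) lower in offspring of undernourished dams. The 3279 became 2155 without undernourished AL replicate 2 and 2179 without control AL replicate 1. With slide 1, 2, 3 or 4 left out it was 1319, 2545, 3706 and 3895, so the count depended most on slide 1. The CR slides alone gave 1203 and the AL slides alone 4905. With slide as a random block instead, 2 genes were called: the prostaglandin E2 receptor gene Ptger4, higher by 0.99, and Sptlc3, a subunit of serine palmitoyltransferase, at -1.08, both with a limma adjusted p of 0.0482. Over all genes 56.3% of differences were above 0 and the median difference was 0.03, on arrays each scaled to its own 75th percentile. A typical gene had an SE of 0.13.

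Genes that were alike on all 4 slides numbered 1867 higher (7.52% of those tested) and 1312 lower (5.28%). A stricter count asks that, on every slide, both undernourished arrays lie on the same side of both control arrays; it held for 53 genes that were higher (0.213%) and 70 that were lower (0.282%). The genes described next are those with the smallest p among the alike genes with a symbol, 10 in each direction, so their agreement across slides is how they were chosen and not a further result. None passed the adjusted threshold in this fit.

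Tor3a, which encodes a torsin family ATPase known as interferon responsive, had the smallest p among the higher genes. Its relative log2 signal was 0.21 and 0.20 in the control pools of slide 1 against 0.92 and 0.74 in the undernourished pools, and 0.75 and 0.46 against 1.12 and 1.12 on slide 2. On the CR slides it was -0.14 and 0.13 against 0.17 and 0.47 on slide 3, and -0.23 and -0.27 against 0.29 and 0.30 on slide 4. The undernourished pools were above the control pools on every slide with no overlap, and the slide differences were 0.63, 0.51, 0.33 and 0.55. The mean difference was 0.50 ± 0.08, or 1.42-fold, with a limma adjusted p of 0.145. Leaving out any single array kept it between 0.48 and 0.55.

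Other higher genes had known roles in metabolism, transcription and immune recognition. Angptl8 encodes a secreted, insulin-induced inhibitor of lipoprotein lipase activity. Its signal was low, with a lowest, median and highest value of -5.69, -5.08 and -4.57 in control pools and -5.36, -4.61 and -4.04 in undernourished pools, and was well above background on 14 of 16 arrays. CR pools were higher than AL pools, a difference that cannot be told apart from slide, and within each slide the maternal groups did not overlap. The difference was 0.46 ± 0.09 (limma adjusted p = 0.234), with slide differences of 0.58, 0.28, 0.48 and 0.51. Hhex, a homeobox transcription factor, ranged from -1.63 to -1.05 with a median of -1.24 in control pools and from -1.14 to -0.42 with a median of -0.63 in undernourished pools. It differed by 0.60 ± 0.11, most on slide 1 (1.04) and by 0.40 to 0.54 on the other slides.

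Ptger4, the EP4 receptor for prostaglandin E2, had the largest difference of the 10 higher genes. Control pools had a lowest, median and highest value of -4.44, -3.72 and -3.04, and undernourished pools -3.15, -2.83 and -2.41. Its mean difference was 0.99 ± 0.19, or 1.98-fold (limma adjusted p = 0.234). The groups were separate on slides 1, 2 and 4 and overlapped on slide 3, where the difference was only 0.17 against 1.62, 1.34 and 0.82 on slides 1, 2 and 4. Gulo, the enzyme of the last step of vitamin C synthesis, was at -4.59 to -3.90 in control and -3.98 to -3.21 in undernourished pools, a difference of 0.66 ± 0.12. H2-M3, a non-classical major histocompatibility class I molecule that presents formylated peptides, was at -1.56 to -0.87 against -1.16 to -0.51. Its difference of 0.40 ± 0.09 was without overlap on every slide, and the 4 slide differences lay between 0.31 and 0.57. The other 4 were Plekhs1 (0.74 ± 0.15), the endosomal GTPase gene Rab20 (0.48 ± 0.10), Fgd6, an exchange factor for Cdc42 (0.41 ± 0.09), and the zinc finger gene Zfp113 (0.41 ± 0.08), with limma adjusted p-values of 0.234 to 0.250.

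**Figure D2:**
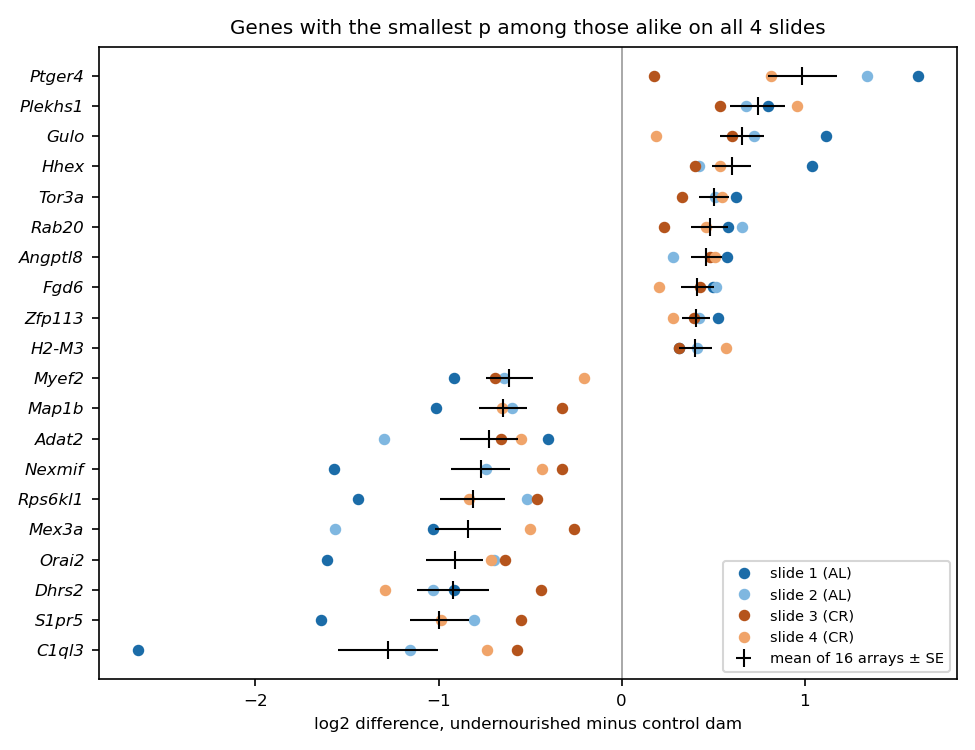
For the 10 higher and 10 lower genes with the smallest p, the log2 difference between undernourished and control dams (x axis) is shown on each slide (coloured points) and as the mean of 16 arrays with its SE (black). All points of a gene lie on one side of 0 because that is how the genes were chosen, and slide 1 holds the largest difference for C1ql3 (-2.64), S1pr5 (-1.64) and Ptger4 (1.62).

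A second choice took the genes whose smallest slide difference was largest, 5 in each direction. The 5 higher genes were Slc15a2, a peptide transporter, Unc93a, Syt6, a synaptotagmin, Kif12, a kinesin, and Agmat, agmatinase, which cleaves agmatine to putrescine and urea. Slc15a2 ranged from -4.92 to 0.75 with a median of -0.92 in control pools and from -0.23 to 1.62 with a median of 0.67 in undernourished pools. The mean difference was 2.04 ± 0.70 (limma adjusted p = 0.296), with slide differences of 1.18, 3.22, 1.40 and 2.36, so the size was large but so was the spread. A further probe of Slc15a2, and likewise of Kif12, had a difference of the opposite sign. Syt6 differed by 1.63 ± 0.46, Kif12 by 1.40 ± 0.39, Unc93a by 1.03 ± 0.45 and Agmat by 0.90 ± 0.23, with limma adjusted p-values between 0.253 and 0.362. For all 5 genes control and undernourished pools overlapped on at least 1 slide. In Agmat, for example, the pools were separate on slides 1, 2 and 3 and overlapped on slide 4. There the control pools were at -3.20 and -1.65 and the undernourished pools at -2.09 and -1.35. Over all slides its control pools ran from -3.27 to -1.38 and its undernourished pools from -2.41 to -0.77.

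Among lower genes, the smallest p belonged to S1pr5, a receptor for sphingosine 1-phosphate known from oligodendrocytes and natural killer cells. Control pools had a lowest, median and highest value of -3.50, -3.05 and -1.73 and undernourished pools -4.32, -3.84 and -3.23. The maternal groups did not overlap within any slide. Slide differences were -1.64, -0.81, -0.55 and -0.99, and the mean was -0.996 ± 0.156 (limma adjusted p = 0.145). Orai2, a channel subunit of store-operated calcium entry, showed the same order. It was at -2.06 and -2.32 in the control pools of slide 1 against -3.59 and -4.01 in the undernourished pools, and at -4.68 and -4.58 against -5.40 and -5.13 on slide 3. The difference was -0.91 ± 0.15 (limma adjusted p = 0.165), and slides 2, 3 and 4 gave -0.69, -0.64 and -0.71.

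Adat2, the catalytic subunit of the deaminase that makes inosine in the anticodon of transfer RNAs, was among the lower genes as well. Its control pools ran from -0.17 to 0.96 with a median of 0.22, and its undernourished pools from -0.79 to 0.13 with a median of -0.47. The groups were separate on every slide, with differences of -0.40, -1.30, -0.66 and -0.55 and a mean of -0.73 ± 0.16 (limma adjusted p = 0.250). Tiam1, an exchange factor for Rac, differed by -0.74 ± 0.17, with medians of -1.36 in control and -2.09 in undernourished pools. Rps6kl1, a kinase-like gene of the ribosomal S6 kinase family, differed by -0.81 ± 0.18. Neither overlapped within a slide.

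Several of the other lower genes are best known from neurons. C1ql3, a secreted synaptic protein, was at -0.63 and -1.17 in the control pools of slide 1 and between -5.88 and -5.32 in the control pools of the CR slides, and its mean difference was -1.28 ± 0.27. Map1b, a microtubule protein of growing axons, differed by -0.65 ± 0.13, and Nexmif, a gene of neurite extension, by -0.77 ± 0.16. Myef2, a repressor of the myelin basic protein gene, differed by -0.61 ± 0.13, the RNA-binding protein gene Mex3a by -0.84 ± 0.18 and the dehydrogenase gene Dhrs2 by -0.92 ± 0.20. All had a limma adjusted p of 0.250. Some of these signals were low: probes were well above background on 13 of 16 arrays for Dhrs2 and on 14 for Myef2 and Mex3a.

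Brain markers were lower as well, so their values stand beside these genes. Of the 33 measured, 32 had a difference below 0, 20 were lower at an unadjusted p under 0.05 (against 7.65% of all genes), 6 were alike and lower (18.2%, against 5.28%), and the median was -0.79. An example was Gria2, a glutamate receptor subunit, at -1.10 ± 0.33, with a limma adjusted p of 0.267. The slide medians of the list were -2.34, -0.86, 0.00 and -0.10. The 20 became 1 with slide 1 left out and 12 without control AL replicate 1. Over all genes, those lower at such a p numbered 795 and 1268 in these settings, in place of 1898. The 12 lower genes named here differed by -1.36 to -0.38 on the CR slides, a sign that their choice fixed. With an index of brain transcripts as a covariate they differed by -1.27 to -0.44. After the 5 arrays with the highest skin marker medians (-2.09 to 0.80) were left out, they differed by -1.49 to -0.39. Those arrays were control AL replicates 1 to 3, undernourished AL replicate 3 and undernourished CR replicate 2, which leaves slide 1 without a control pool. Undernourished AL replicate 3 also had the highest liver marker median (-2.03). The next highest, control CR replicate 1 (-3.09) and undernourished AL replicate 4 (-3.58), were kept. The 15 higher genes named above differed by 0.36 to 2.34 with the brain index. All these genes were chosen on the same arrays, so the ranges are a description and not a further result. No gene of either kind passed the adjusted threshold in these settings, and the part of brain transcripts in these differences was not tested further.

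**Figure D3:**
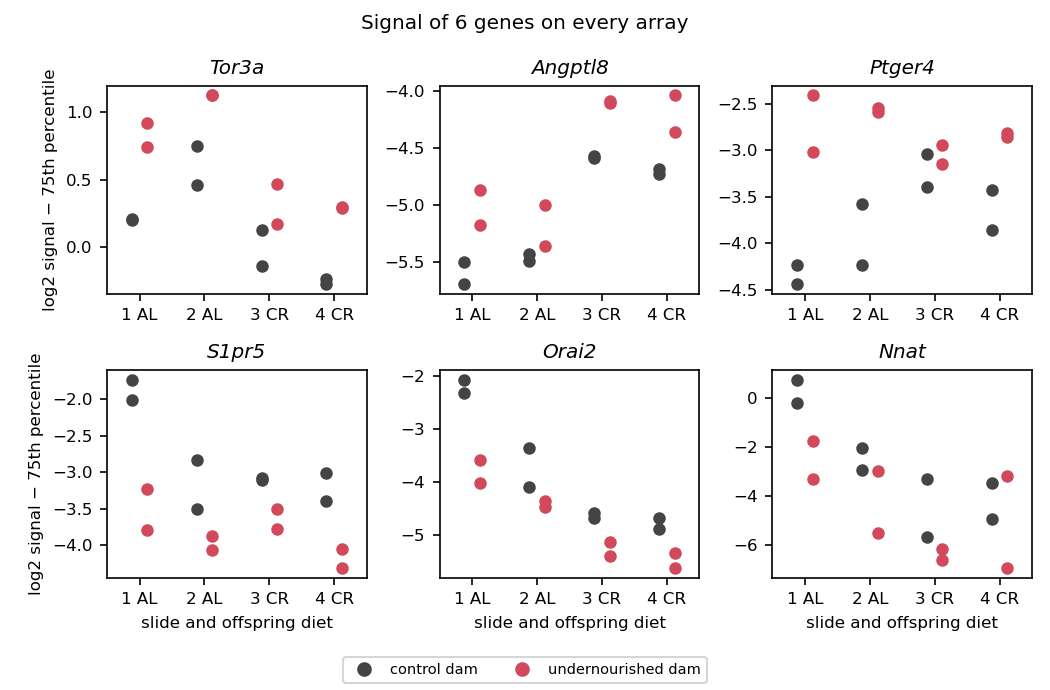
Relative log2 signal (y axis) of 6 genes on each of the 16 arrays, by slide and offspring diet (x axis), in control dams (grey) and undernourished dams (red). Tor3a, Angptl8, S1pr5 and Orai2 are separate within every slide, while Ptger4 overlaps on slide 3 and Nnat on slide 4.

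Nnat, neuronatin, is imprinted and expressed from the paternal copy, and was the lower gene with the largest mean difference by this second choice. In control pools it ran from -5.70 to 0.74 with a median of -3.13, and in undernourished pools from -6.96 to -1.76 with a median of -4.42. Its probe was well above background on 14 of 16 arrays, which limits the size of its difference. In undernourished CR replicates 1, 2 and 4 it was at -6.17, -6.62 and -6.96. The slide differences were -2.80, -1.76, -1.89 and -0.84, and the mean was -1.82 ± 0.58 (limma adjusted p = 0.281). On slide 4, undernourished values of -3.18 and -6.96 lay on both sides of the control values of -4.97 and -3.48. In control AL replicates 1 to 4 Nnat was at 0.74, -0.23, -2.04 and -2.94, where the brain marker medians were 1.03, 0.74, -1.05 and -1.67. On the CR slides it differed by -1.36, where the brain marker median differed by -0.07. The part of brain transcripts in its difference was not tested. The other imprinted growth genes lay on both sides of 0. Of 19 measured, 10 were above 0, the median was 0.00, and Nnat was the only member alike on all slides. Slc38a4, an imprinted amino acid transporter, differed by 0.42 ± 0.18, and Igf2, the fetal growth factor, by -0.15 ± 0.11.

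Genes of muscle loss and FoxO targets were mostly higher in offspring of undernourished dams, without a member that passed the test. Of 30 measured, 29 had a difference above 0 and the median was 0.32; over all genes 56.3% of differences were above 0 and the median was 0.03. The slide medians were 0.26, 0.42, 0.31 and 0.10. Alike and higher were 10 members (33.3%, against 7.52% of all genes), and none was alike and lower (against 5.28%). At an unadjusted p under 0.05, 5 members were higher and none lower, against 5.56% and 7.65% of all genes. The list was written with earlier results of these data known, so these counts are a description. Since the pools are bulk tissue, more RNA per fibre and another mix of fibres or cells cannot be told apart.

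The ubiquitin ligase genes that mark atrophy were among the higher members but varied between pools. Fbxo32, atrogin-1, had a lowest, median and highest value of 3.78, 6.51 and 7.84 in control and 4.42, 7.20 and 8.09 in undernourished pools. Trim63, MuRF1, had 5.22, 7.08 and 8.19 against 5.64, 7.39 and 8.85. Both were higher in undernourished pools on slides 1, 2 and 3 and lower on slide 4, and their mean differences of 0.51 ± 0.36 and 0.49 ± 0.28 lay within the spread (limma adjusted p = 0.554 and 0.462). Fbxo30, a ligase of the same family, was alike on all slides, with medians of 0.39 in control and 1.07 in undernourished pools. It had slide differences of 0.89, 0.55, 0.33 and 0.12 and a mean of 0.47 ± 0.15 (limma adjusted p = 0.281). Txnip, the thioredoxin-interacting protein that restrains glucose uptake, had medians of 5.20 and 5.37 and a mean difference of 0.32 ± 0.11 (limma adjusted p = 0.302).

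The other alike members, named after their values were seen, belong to autophagy, growth arrest and the upstream transcription factors. In autophagy, the initiating kinase gene Ulk1 differed by 0.40 ± 0.17, the mitophagy receptor gene Bnip3 by 0.45 ± 0.23, the lysosomal protease gene Ctsl by 0.48 ± 0.23 and Map1lc3b, a coat protein of autophagosomes, by 0.20 ± 0.11. Of the genes that slow growth, Sesn1, an inhibitor of mTORC1, differed by 0.76 ± 0.38 and the cyclin-dependent kinase inhibitor gene Cdkn1a by 0.52 ± 0.31. Cdkn1a was even across slides, at 0.48, 0.45, 0.43 and 0.73, although its pools ran from 0.26 to 3.15 in controls and from 0.43 to 3.60 in undernourished offspring. The glucocorticoid-induced factors Klf15 and Cebpd differed by 0.22 ± 0.20 and 0.39 ± 0.29. Gadd45a (0.56 ± 0.22) and Gabarapl1 (0.53 ± 0.23) had unadjusted p-values of 0.0216 and 0.0371 but negative differences on slide 4. Fbxo21 was the only member below 0, at -0.13 ± 0.10.

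**Figure D4:**
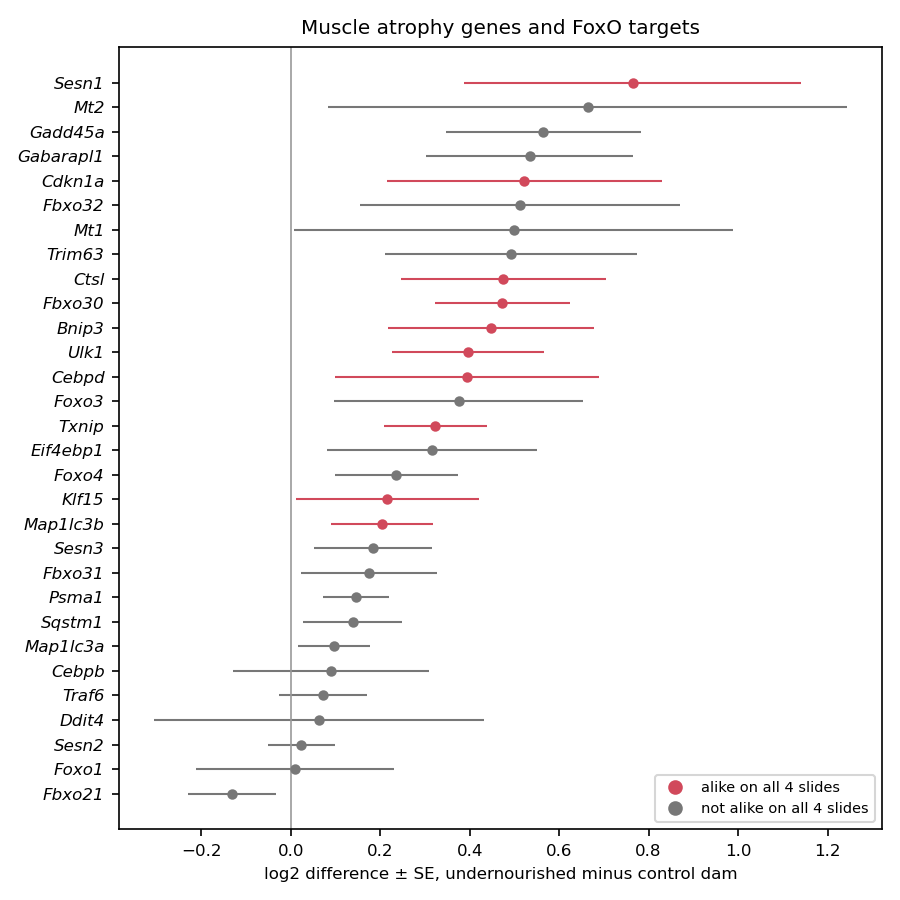
Log2 difference with its SE (x axis) for each of the 30 measured atrophy genes and FoxO targets; red members are alike on all 4 slides and grey members are not. Of the 30, 29 lie to the right of 0, and many error bars reach close to or across 0.

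In settings that leave out or adjust for the arrays with other tissues, the median stayed above 0 and fewer members had a low p. On the CR slides alone 25 of 30 members were above 0 (median 0.21), with the brain index 26 (0.28), and after leaving out the 5 arrays named above 25 (0.20). Members at an unadjusted p under 0.05 numbered 1, 1 and 0 in these settings, in place of 5. Over all genes, those higher at such a p numbered 651, 484 and 335, in place of 1381. Single pools mattered for the size of the list's median. Without undernourished CR replicate 4 the median was 0.20, and without undernourished CR replicate 3 it was 0.39, with 13 members at such a p. Without control AL replicate 4 only 2 members had such a p. Of all genes, 1848 were higher at such a p without undernourished CR replicate 3 and 1497 without control AL replicate 4. On the CR slides these pools stood apart from each other: the median level of the list was 3.76, 4.76, 3.37 and 5.31 in undernourished CR replicates 1 to 4, and 3.64, 4.02, 4.20 and 4.05 in control CR replicates 1 to 4.

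Promoters of the list were searched because its members lay together on the same side of 0. The letters searched were the forkhead core GTAAACA on either strand, in windows from 250 bases before to 50 bases after the annotated start (RefSeq, GRCm38.p6). A window was at hand for 25 of the 30 genes, 27 windows in all, and 3 of them (11.1%) held the motif, against 1199 of 32851 windows of all genes (3.65%). The 3 windows are shown with the motif in capitals, each read 5′ to 3′ on the plus strand, which is the strand of the gene. They belong to Sesn1 (chr10:41810324-41810623), Trim63 (chr4:134314870-134315169) and Txnip (chr3:96557707-96558006).
Sesn1: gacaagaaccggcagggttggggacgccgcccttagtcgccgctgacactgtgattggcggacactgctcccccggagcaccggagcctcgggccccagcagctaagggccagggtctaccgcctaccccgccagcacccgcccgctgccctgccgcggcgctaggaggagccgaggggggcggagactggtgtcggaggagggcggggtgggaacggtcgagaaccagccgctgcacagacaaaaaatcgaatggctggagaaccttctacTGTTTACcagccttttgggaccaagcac
Trim63: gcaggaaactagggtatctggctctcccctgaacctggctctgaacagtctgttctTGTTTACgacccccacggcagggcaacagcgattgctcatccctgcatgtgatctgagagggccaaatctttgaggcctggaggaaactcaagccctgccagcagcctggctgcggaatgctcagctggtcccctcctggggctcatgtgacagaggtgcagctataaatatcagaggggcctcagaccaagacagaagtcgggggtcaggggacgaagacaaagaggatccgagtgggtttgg
Txnip: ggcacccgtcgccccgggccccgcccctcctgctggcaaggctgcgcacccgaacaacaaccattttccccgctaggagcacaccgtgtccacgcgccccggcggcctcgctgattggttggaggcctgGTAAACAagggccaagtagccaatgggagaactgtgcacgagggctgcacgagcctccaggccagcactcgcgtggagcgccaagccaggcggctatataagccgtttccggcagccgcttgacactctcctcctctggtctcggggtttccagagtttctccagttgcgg
In Sesn1 and Trim63 the motif lies on the minus strand and reads TGTTTAC, and in Txnip it lies on the plus strand. It is 22 bases after the start in Sesn1, 194 bases before it in Trim63 and 121 bases before it in Txnip. A match of letters is not evidence of binding, and windows without it say nothing about FoxO factors.

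Genes of the glucocorticoid response had a median difference of 0.20 over 16 measured members, with 4 alike and higher (25.0%, against 7.52% of all genes) and none alike and lower (against 5.28%). Dusp1, a phosphatase of MAP kinases, differed by 0.61 ± 0.28 and the mineralocorticoid receptor gene Nr3c2 by 0.26 ± 0.10 (limma adjusted p = 0.372 and 0.331). A further probe of Nr3c2 had the opposite sign. The list's median was 0.34 on the AL slides, 0.06 on the CR slides, and -0.03 after leaving out those 5 arrays. Of 21 clock genes 14 were above 0 with a median of 0.12. Nr1d1, the repressor REV-ERB alpha, was at 0.03 to 1.57 in control and 0.97 to 2.04 in undernourished pools, a difference of 0.75 ± 0.24 (limma adjusted p = 0.283). The clock list's median changed side with offspring diet, at 0.23 on the AL slides and -0.08 on the CR slides, and was -0.12 without those 5 arrays.

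Immediate early genes, which respond within minutes to growth factors, handling or contraction, had a median of 0.09 over 27 measured members, 0.39 on the AL slides and -0.18 on the CR slides. Ier2 and Ccn1 were alike nonetheless. Ier2 was at 0.27 to 1.18 in control and 0.93 to 1.68 in undernourished pools, a difference of 0.43 ± 0.12 (limma adjusted p = 0.256). Ccn1, a matrix-associated signalling protein, was at 1.86 to 3.50 against 2.29 to 3.71, a difference of 0.48 ± 0.13 (limma adjusted p = 0.257).

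Of 30 measured interferon-stimulated genes, 21 were above 0 and the median was 0.16, with slide medians of 0.15, 0.07, 0.18 and 0.09. Alike and higher were 8 members (26.7%, against 7.52% of all genes), and alike and lower were 3 of the 30, against 5.28% of all genes. The higher members included Irf1, an interferon transcription factor, which differed by 0.20 ± 0.10. B2m, the light chain of class I molecules, differed by 0.22 ± 0.10, and the immunoproteasome subunit genes Psmb8 and Psmb9 by 0.19 ± 0.14 and 0.26 ± 0.16. The GTPase genes Iigp1 and Gbp4 differed by 0.82 ± 0.29 and 0.59 ± 0.28. Iigp1 had the most even large mean difference, at 0.81, 0.90, 1.01 and 0.54 on the 4 slides (limma adjusted p = 0.302). Its pools were at -0.38 to 1.49 in control and 0.03 to 2.37 in undernourished offspring. They overlapped on slides 1, 3 and 4, for example at 0.14 and 1.49 in control against 2.37 and 0.88 in undernourished pools on slide 1.

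Other members of the list varied in sign. The RNA sensor gene Ifih1 was higher by 0.28 ± 0.08, although a further probe of it had the opposite sign. Ifi44 (-0.45 ± 0.28), the tetherin gene Bst2 (-0.16 ± 0.11) and Oas1a (-0.08 ± 0.13) were alike and lower. Isg15 (-0.17 ± 0.16), Ifit3 (0.02 ± 0.47) and Rsad2 (0.35 ± 0.22) had no common sign over the slides. Apart from Ifih1 and Iigp1, the interferon genes were named after their values were seen. No interferon gene passed adjustment over all genes. Leukocyte and macrophage markers stood at a median of -0.07 over 26 genes, -0.27 on the AL slides and 0.23 on the CR slides, and no member was alike in either direction; their part in these values was not tested.

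**Figure D5:**
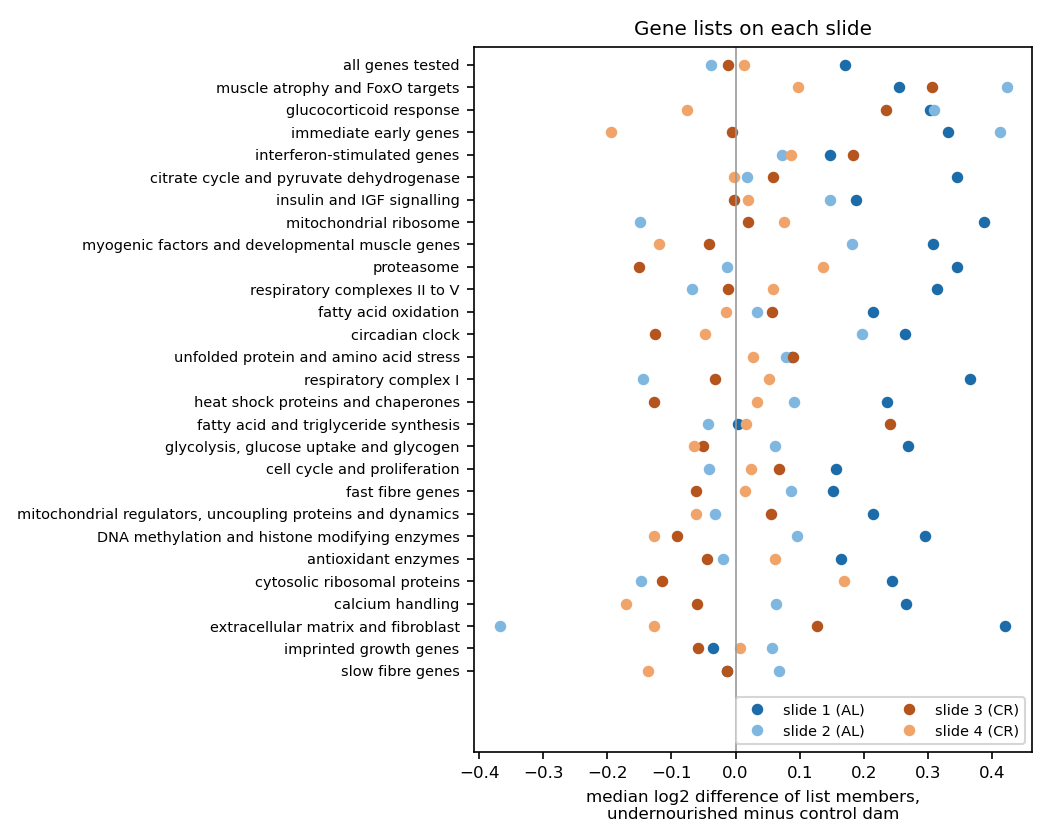
Median log2 difference of each pathway list (x axis) on each slide, with all genes tested in the top line; blue slides are AL and orange slides are CR. The atrophy and interferon lists lie above 0 on all 4 slides, as does the list of unfolded protein and amino acid stress, while most others spread to both sides of 0, with slide 1 farthest to the right.

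Genes of fuel metabolism had medians near that of all genes. Respiratory complex I had a median of 0.06 over 36 genes and complexes II to V 0.08 over 42, and no member of either had an unadjusted p under 0.05. Over the lists of fatty acid oxidation, fatty acid synthesis and the citrate cycle the medians were 0.08, 0.08 and 0.11. Members above 0 numbered 32 of 36 in complex I and 36 of 42 in complexes II to V. In fatty acid oxidation 6 of 24 were alike and higher (25.0%, against 7.52% of all genes). These sizes moved with slide 1: the slide medians of complex I were 0.366, -0.145, -0.03 and 0.05. Without slide 1 the medians were -0.05 for complex I, -0.001 for complexes II to V and -0.01 for fatty acid oxidation. For the citrate cycle and fatty acid synthesis they were 0.03 and 0.105. The scaling mattered as well: in the authors' deposited log2 table the median of complex I was -0.01. Single enzymes were alike and higher, among them Pdha1, the E1 alpha subunit of pyruvate dehydrogenase (0.31 ± 0.11), Acsl1, which activates long fatty acids (0.25 ± 0.10), and Opa1, of mitochondrial fusion (0.26 ± 0.11), with limma adjusted p-values of 0.300, 0.322 and 0.342. In glycolysis, with a median of 0.05, Pfkfb3 stood out. This enzyme makes fructose 2,6-bisphosphate, the activator of phosphofructokinase, and was at 3.55 to 5.20 in control and 4.33 to 5.93 in undernourished pools. Its difference was 0.78 ± 0.26 (limma adjusted p = 0.286), with slide differences of 1.56, 0.75, 0.18 and 0.62.

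Insulin and growth factor signalling genes had a median of 0.06 over 32 measured members. Of these, 3 were alike and higher (9.38%, near the 7.52% of all genes) and none alike and lower (against 5.28%). Insr, the insulin receptor, was alike at 0.25 ± 0.09, with medians of 1.03 in control and 1.37 in undernourished pools (limma adjusted p = 0.316). Igf1r differed by 0.26 ± 0.12 and Igf1 by 0.06 ± 0.15. Among DNA methylation and histone enzymes the median was 0.04 over 21 genes. Dnmt3a, a de novo DNA methyltransferase, was alike and lower by its brightest probe, at -0.32 ± 0.12 with slide differences between -0.39 and -0.22 (limma adjusted p = 0.316), while both of its further probes had the opposite sign.

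Fibre type and structural genes were close to even. The median was 0.05 over 19 fast fibre genes, 0.02 over 19 slow fibre genes, 0.06 over 22 myogenic and developmental genes and -0.03 over 22 calcium handling genes. The main fast myosin gene Myh4 differed by 0.05 ± 0.09 and the slow myosin gene Myh7 by -0.39 ± 0.32. Of the 19 slow fibre genes, 3 were alike and lower (against 5.28% of all genes) and 2 alike and higher (against 7.52%). No slow fibre gene had an unadjusted p under 0.05. The 2 higher ones were Ankrd2 and Csrp3, stretch-responsive genes of the sarcomere, at 0.78 ± 0.39 and 0.74 ± 0.41. Control pools of Csrp3 spread from 2.98 to 6.67. Extracellular matrix genes had a median of 0.02 over 30 members, and Pdgfrb, a receptor of fibroblasts and pericytes, was its only member alike, at 0.44 ± 0.11 (limma adjusted p = 0.253). Its pools were at 2.28 to 2.93 in control and 2.74 to 3.28 in undernourished offspring. Smooth muscle and pericyte markers had a median of 0.01 over 13 genes and endothelial markers 0.08 over 16.

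The remaining lists had medians near that of all genes. Cytosolic ribosomal proteins had a median of 0.04 over 74 genes and mitochondrial ribosomal proteins 0.07 over 75, and proteasome genes had 0.10 over 38. Heat shock genes had 0.04 over 25, antioxidant enzymes 0.05 over 27, and cell cycle genes 0.06 over 27. Of the cell cycle genes 5 were alike and higher (18.5%, against 7.52% of all genes) and 3 alike and lower (11.1%, against 5.28%). In amino acid and unfolded protein stress the median was 0.10 over 21, with 3 alike and higher (14.3%) and 1 alike and lower (4.76%). The stress sensor gene Atf6 was alike at 0.31 ± 0.10 (limma adjusted p = 0.278). Sod3, the extracellular superoxide dismutase, was alike and lower at -0.59 ± 0.24, close to background (well above it on 12 of 16 arrays). Medians of the other marker lists were 0.01 for liver, 0.07 for adipocyte, -0.02 for Schwann cell, -0.05 for tendon and cartilage and 0.13 for erythroid genes.

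The maternal difference was also taken within each offspring diet in a joint model of all arrays. There, 427 genes (1.72%) were higher and 1541 (6.21%) lower within AL, and none was called within CR (0.0%). Among the AL calls were 20 of 33 brain and 9 of 16 skin markers, whose median differences there were -1.60 and -2.82; the part of such transcripts in the other AL calls was not tested. The AL calls rest on a spread shared with the CR arrays: with the AL slides fitted alone, limma called 0 genes, with 4905 at an unadjusted p under 0.05. With the CR slides alone it also called 0, with 1203 at that p. The difference between the offspring diets itself passed for 12 genes (0.0483%). None of the 27 genes named by p or by slide difference was among them. Their choice for the same sign on the slides of both diets selects against such a difference, so this is not a further result. Their adjusted p for that difference ran from 0.135 for Ptger4 to 0.991 for Unc93a, which does not show that the maternal difference was the same in both diets.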

How the data were processed

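Total RNA of tibialis anterior (200 ng) was labelled with Cy3 and hybridised to 1-colour Agilent mouse arrays, per the labels' protocols. The deposited intensity is the green processed signal of Agilent Feature Extraction 10.5.1.1, per the file headers subtracted for background, detrended across the slide area, and not scaled between arrays. The deposited flags mark spots well above background, and the authors also deposited a log2 table, used as an alternative; how it was normalized is not stated in those sources. A normalization across arrays was made here by subtracting each array's 75th percentile of log2 signal. Of 45018 spots, controls and outlier spots (53 to 176 per array) were left out, 32079 probes were kept, each flagged well above background on 4 arrays or more, and the brightest probe stood for a gene, 24826 genes in all. Of 41174 probes, 24844 matched a RefSeq symbol, giving 17178 symbols. Among 47 named genes with further probes, 7 had a further probe of opposite sign.

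The test between maternal diets was limma 3.58.1 (R 4.3.3; lmFit, eBayes) with slide as a fixed block, two-sided, Benjamini-Hochberg over all genes, calls at an adjusted p under 0.05. The fit was also run on simulated data with independent noise for each gene. Such data hold no shared litters and no varying share of other tissues, so the run says nothing about these. Genes were named as the 10 smallest p and the 5 largest smallest-slide differences in each direction among alike genes with a symbol, and 2 per list by p (up to 4 where members were called); others were named after their values were seen. The comparison, the 27 pathway lists and the 11 marker lists were chosen with earlier results of these data known. The brain index is the mean linear signal of the brain markers relative to the highest array. The number of pools limits the precision, and 16330 probes without a RefSeq symbol kept the name in the files. A few genes are not reported here.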

Additional observations from a re-analysis of the deposited data

Results flagged for a closer look

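In groups of 4 pools, 9 of 152 groups examined (5.9%) held an array far from the other 3 by Dixon's test, which chance gives in about 1 in 20 groups. Syt6 and Agmat, 2 of the higher genes with large slide differences, were both high in control CR replicate 4: Syt6 was at -1.51 there and at -3.76 to -3.47 in the other control CR pools, and Agmat at -1.65 against -3.27 to -3.20. H2-M3 was low in control CR replicate 3, at -1.56 against -1.26 to -1.24. Nexmif was high in undernourished AL replicate 1, at -4.39 against -4.75 to -4.70. The skin marker median of undernourished AL replicate 3 was -2.09 against -3.43 to -3.29 in the other pools of that group. The liver marker median was -4.03 in control AL replicate 4 against -4.52 to -4.43, and -4.12 in undernourished CR replicate 3 against -4.57 to -4.53. The erythroid marker median was 1.31 in undernourished AL replicate 3 against 0.45 to 0.57, and 1.69 in undernourished CR replicate 4 against 0.31 to 0.52.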

How the results depend on the processing

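No gene was called under any alternative except 3. With slide as a random block 2 genes were called, Ptger4 (0.99, adjusted p = 0.0482 in limma) and Sptlc3, and leaving out single replicates gave 0 to 1, with 1 transcript without a symbol called without control AL replicate 4 and another without control CR replicate 4. The count at an unadjusted p under 0.05 was 1319 without slide 1 and 1062 after leaving out the 5 arrays with the highest skin marker medians. It was 1220 with the brain index and 1203 on the CR slides alone, against 3279. Counts of genes alike on 3 slides are higher by construction: with slide 2, 3 or 4 left out 3563, 3892 and 3784 were higher, and with slide 1, 3 or 4 left out 3038, 2383 and 2451 were lower. To see whether same-numbered control and undernourished pools belong together, each pool's deviations from its group mean were correlated over genes. These deviations correlated at 0.112 to 0.441 in AL and 0.0173 to 0.226 in CR for same-numbered pools. For other pairs the range was -0.428 to 0.249. Same-numbered pools always shared a slide, and the group means span slides, so this check cannot tell pairing from slide. Not every pair was above 0.1, and not every pool correlated best with its own number, so numbers were not taken as pairs; with a replicate block 0 genes were called (smallest adjusted p 0.282 in limma) and 2830 had an unadjusted p under 0.05. Values of named genes kept their sign and their side of the threshold in 3208 pairs of gene and alternative, and 11 turned sign. Much of this was fixed in advance. The genes named by p or by slide difference were chosen for 1 sign on all 4 slides, so leaving out slides could not turn it. No gene was called in the main fit, and the alternatives use the same arrays, so the count is a description. Signs turned on the CR slides alone for Sdha (-0.00943), Rpl21 (0.0166), Rcan1 (-0.056), Slc7a10 (0.0584), Gap43 (0.28), Coro1a (0.00542), Tek (-0.0298) and Myh11 (-0.18). They turned without the 5 arrays for Slc7a10 (0.056), and with the brain index for Slc7a10 (0.0776) and Gap43 (0.085); the cause was not tested. Normexp was run on the median signal, chosen after seeing the files; the planned run on the mean signal was not run. Probes near background, such as Sod3 and Angptl8, limit small differences.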
